A study of Dorcoceras hygrometricum with 14 samples.

Results

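The regions described here are stretches of the Boea hygrometrica genome whose CG methylation differed between young and mature leaves. They are annotated only as downstream of a gene. They were chosen from the deposited table of 2247 CG regions by position alone: a region was taken when the table named a gene whose 2 kb downstream window holds it and named no gene for its upstream window, an exon or a coding sequence. This rule gave 195 regions of the 2247, out of 369 that had any downstream entry. They belong to 196 genes in 227 pairs of region and gene, with 164 regions next to 1 gene, 30 next to 2 genes and 1 next to 3 genes.

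Boea hygrometrica (also named Dorcoceras hygrometricum) is a resurrection plant whose leaf pieces can regenerate shoots, and the series asked how DNA methylation relates to that capacity. The young leaf DNA came from expanding leaves of plants aged 1 month and the mature leaf DNA from fully expanded leaves of plants aged 6 months, both untreated and grown from seeds collected in the wild, so that plant age and leaf development cannot be told apart. For each stage, 5 biological replicates of 30 leaf discs were mixed and sequenced as 1 bisulfite library, with 44.49 Gb of clean bases for young and 41.19 Gb for mature leaves. The expression data are 12 RNA libraries of young leaf explants, squares of 0.5 cm, from plants aged 1 month, taken after 0, 5, 10 and 15 days on induction medium with 0.1 mg/L 2,4-D (an auxin) and 0.1 mg/L 6-BA (a cytokinin), with 3 biological replicates a day. Mature leaf RNA was not analysed here.

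In plants, CG methylation is copied after each DNA replication by a maintenance methyltransferase, so that a level can be passed through many cell divisions. Transposons and repeats are usually methylated in the CG, CHG and CHH contexts together (H is any base but G), while the transcribed part of many active genes carries CG methylation alone, which in Arabidopsis falls off toward the ends of the gene. The stretch just past a gene holds the site where transcription terminates, and lies between those 2 kinds of methylated sequence. A methylation level is given below as a fraction, from 0 (no read methylated) to 1 (all methylated), and a difference is always the mature level minus the young level.

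Because each leaf stage is 1 library, no difference in methylation below has a replicate check or a test of its own, and read depth per region is unknown. The table's authors admitted a region only if its levels differed, so that a difference exists is not a result: its direction, its size and the levels are what the data describe. In the authors' deposited table the p-values of these 195 regions ran from 9.62e-11 to 0.0478. For regions with 5 CG sites the smallest p in the authors' deposited table was 0.00794, which equals 2 of the 252 orderings of 5 values against 5. The direction word in the table matched the sign of the levels in all 2247 regions. Where the same gene had both an upstream and a downstream CG region and a listed position, these lay on opposite sides of the gene for 49 genes and on the same side for 0.

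Mature leaves had the lower level in 112 of the 195 regions (57.4%) and the higher level in 83. The median level was 0.587 in young leaves (quartiles 0.263 and 0.879) and 0.575 in mature leaves (quartiles 0.00663 and 0.892). The median region was lower by 0.110 in mature leaves, and the spread was wide: the 83 higher regions differed by 0.0452 to 0.758, with a median of 0.177, and the 112 lower regions by -0.0469 to -0.604, with a median of -0.25. Differences of at least 0.1 were present in 175 regions, of at least 0.3 in 55 and of at least 0.5 in 13. The share differing by at least 0.3 was 28.2%, against 22.6% of all 2247 CG regions. It ran from 6.63% of regions with no gene to 42.6% of exon regions outside coding sequence. Among the 55 regions that differed by at least 0.3, 40 were lower in mature leaves and 15 higher.

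The regions fell into distinct kinds. In 49 of them (25.1%) the mature level was exactly 0, against young levels of 0.102 to 0.52 with a median of 0.238. The reverse was rare: 5 regions (2.56%) were at 0 in young leaves, with mature levels of 0.112 to 0.72. It was rare over all 2247 CG regions too, with 261 (11.6%) at 0 in mature and 35 (1.56%) at 0 in young leaves. Another 46 regions (23.6%) were above 0.8 in both stages, and 34 of these 46 were higher in mature leaves, by a median of 0.105. The 49 regions had a median length of 224 bases and 7 CG sites, against 197 bases and 6 sites over all 195, and 13 of the 49 had the minimum of 5 sites.

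**Figure D1:**
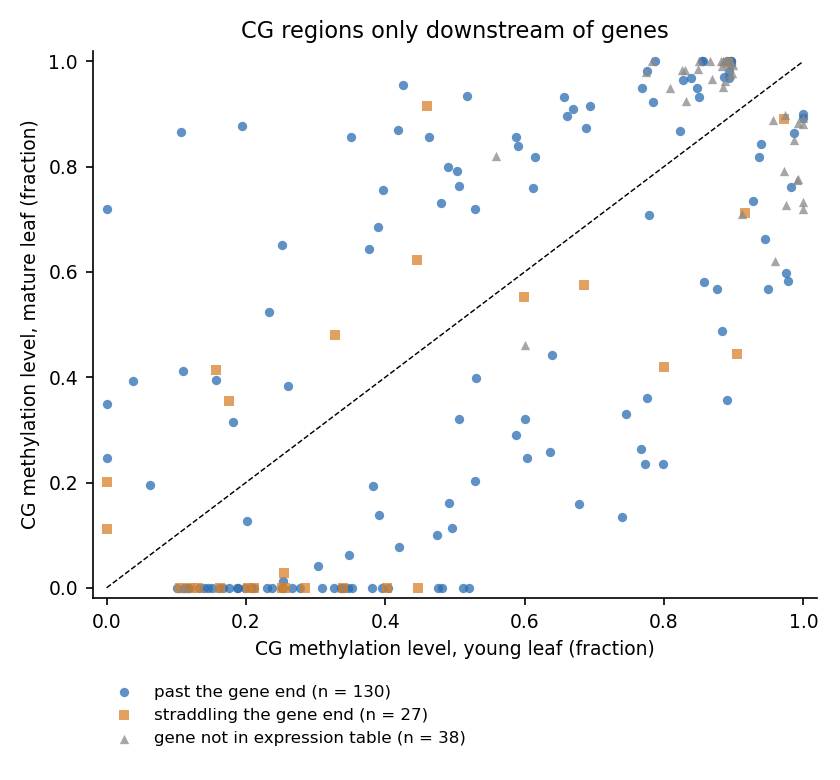
CG methylation level (fraction) of each of the 195 regions in young leaves (x axis) and mature leaves (y axis), 1 point per region, with the line of equal levels dashed; circles lie past the gene end, squares straddle it and triangles belong to genes with no row in the expression table. The row of points along the lower edge is the 49 regions at level 0 in mature leaves, and the triangles crowd the upper right corner.

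Levels differed with the distance of the region from its gene. Of the 157 regions with a listed gene, 27 straddled the annotated gene end, so that part of each lay inside the listed gene span. The other 130 began 9 to 1914 bases past it, with a median of 811.5 bases. None lay wholly inside a listed gene. The straddling regions had the lowest levels, with medians of 0.285 in young and 0.112 in mature leaves, and 12 of the 27 (44.4%) were at 0 in mature leaves. Between 1 and 500 bases the medians were 0.347 and 0.314 over 43 regions, with 34.9% at 0 in mature leaves. Past 500 and up to 1000 bases they were 0.474 and 0.258 over 41 regions. Past 1000 and up to 2000 bases they were 0.601 and 0.713 over 46 regions. The share lower in mature leaves was 70.4%, 58.1%, 65.9% and 54.4% in these groups from the nearest to the farthest. The share that differed by at least 0.3 between stages was 22.2%, 23.3%, 58.5% and 30.4% in the same order. Over the 157 regions, distance and level had a Spearman correlation of 0.278 in young and 0.258 in mature leaves. This is a description, since regions of 1 gene share their surroundings and all share the same pair of libraries.

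**Figure D2:**
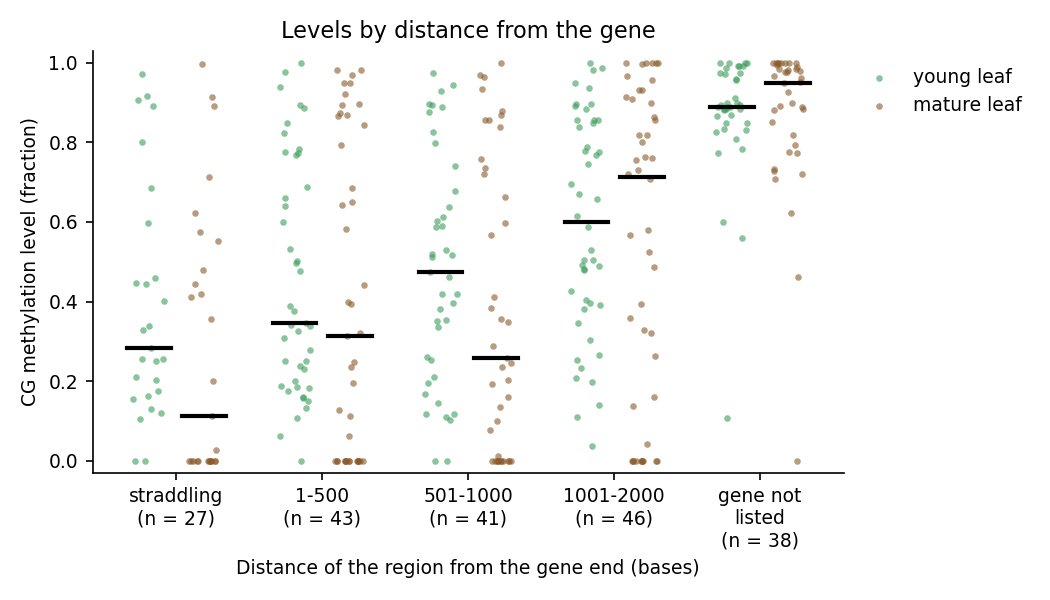
CG methylation level (fraction, y axis) of each region in young (green) and mature (brown) leaves by distance from the gene end in bases (x axis), 1 point per region and stage, with black bars at the median. Mature medians stand at 0.112, 0.314, 0.258 and 0.713 from straddling to 2000 bases, and at 0.95 where the gene has no row in the expression table.

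Levels were lower beside genes that were expressed in young leaf explants at day 0 than beside genes that were nearly silent there, taking the most expressed gene where a region had several. Beside genes at 10 FPKM or more (fragments counted per length of transcript and per size of the library), the 97 regions had medians of 0.397 in young and 0.235 in mature leaves, 67.0% were lower in mature leaves and 3.09% were above 0.8 in both. Beside genes between 1 and 10 FPKM, the 32 regions had medians of 0.343 and 0.338, and 59.4% were lower. Beside genes under 1 FPKM, the 28 regions had medians of 0.856 and 0.901, 42.9% were lower and 57.1% were above 0.8 in both. The 38 regions whose genes have no row in the expression table were like these last ones, with medians of 0.889 and 0.950, and 65.8% were above 0.8 in both. The genes of the 46 regions above 0.8 in both stages had a median day 0 level of 0.12 FPKM, with 16 of the 21 listed under 1 FPKM, against 13.9 FPKM for the 59 genes of the regions at 0 in mature leaves. Over all 160 listed genes the median was 13.5 FPKM, close to 13.6 for the 1346 listed genes of the same scaffolds.

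Scaffolds (the assembled pieces of this genome) differed in the same sense, and their part in these patterns was not tested. All 18 scaffolds of the CG table held such regions, 1 to 26 each. On the 10 scaffolds with 41 to 186 listed genes, 154 regions had medians of 0.453 in young and 0.353 in mature leaves, 63.0% were lower and 31.2% were at 0 in mature leaves. On the 8 scaffolds with 2 to 21 listed genes, 41 regions had medians of 0.891 and 0.969, 36.6% were lower and 2.44% were at 0. Within the 10 scaffolds with many genes, the mature median was 0.241 beside genes at 10 FPKM or more (96 regions). It was 0.320 from 1 to 10 FPKM (31 regions) and 0.789 under 1 FPKM (16 regions, quartiles 0.235 and 0.925). The young medians of these groups were 0.396, 0.339 and 0.727.

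The other CG regions of the table give the background for these values. The share lower in mature leaves was 57.4% of 204 upstream regions, 51.4% of 463 exon regions outside coding sequence, 47.1% of 420 coding regions and 40.3% of 965 regions with no gene. The share at exactly 0 in mature leaves was 25.1% downstream, 17.7% upstream, 16.6% in exons outside coding sequence and 1.55% with no gene, and 84 of the 420 coding regions were at 0. The 174 regions that were downstream of a gene and also upstream, exonic or coding had 26.4% at 0 and 54.0% lower in mature leaves. Regions with no gene were above 0.8 in both stages in 74.8% of cases. On the 10 scaffolds with many genes the shares at 0 were 31.2% downstream, 21.7% upstream, 17.9% in exons outside coding sequence and 21.2% in coding sequence. Upstream regions showed a like gradient with expression, with mature medians of 0.327, 0.446 and 0.870 beside genes at 10 FPKM or more, from 1 to 10 FPKM and under 1 FPKM. These classes come from the same pair of libraries, and none of the differences between them was tested.

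**Figure D3:**
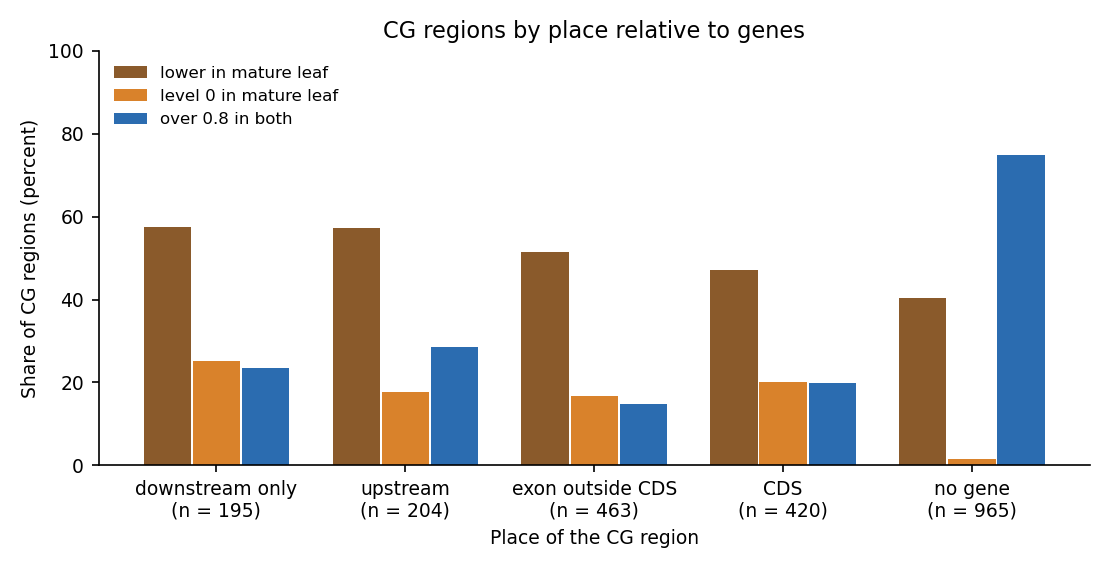
Share of CG regions (percent, y axis) that were lower in mature leaves, at level 0 in mature leaves, and above 0.8 in both stages, for each place relative to genes (x axis, with the number of regions). Over all scaffolds, the downstream class has 57.4%, 25.1% and 23.6%, and the class with no gene has 40.3%, 1.55% and 74.8%.

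Regions of CHG or CHH difference, known here by position alone, overlapped 31 of the 195 regions (15.9%, at least 1 base shared), compared with 292 of all 2247 CG regions, 21.6% of upstream regions, 17.8% of those with no gene, 5.48% of coding and 4.75% of other exon regions. CHG regions touched 18 and CHH regions 19. The 31 overlapped regions were highly methylated, with medians of 0.83 in young and 0.868 in mature leaves, and 38.7% were lower in mature leaves. Of the 164 without overlap, 61.0% were lower and 28.7% were at 0 in mature leaves. Only 2 of the 49 regions at 0 in mature leaves overlapped a CHG or CHH region.

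Several genes carried a block of regions rather than 1, and the largest positive difference lay in such a block. Behind F511_03011, named by homology as DHX35, a probable ATP-dependent RNA helicase of a family that unwinds RNA, the region at KQ987269.1:91441-92356 began 240 bases from the gene and held 31 CG sites. It had a level of 0.107 in young and 0.865 in mature leaves, a difference of 0.758, and had the smallest p of all 195 regions in the authors' deposited table (9.62e-11). It also overlapped a CHG region. Its neighbour at KQ987269.1:91256-91397 was at 0.426 and 0.956. Farther out, 1838 bases from the gene, KQ987269.1:90632-90758 was lower in mature leaves, at 0.982 and 0.762. A region in the coding sequence of F511_03011 was lower in mature leaves as well, with a difference of -0.287.

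The gene with the most regions, F511_00062, differed in 1 direction throughout. It encodes a root border cell-specific protein-like protein, and its 4 downstream regions were 0.906, 0.978, 0.950 and 0.775 in young leaves from the nearest to the farthest. In mature leaves the same regions were 0.444, 0.583, 0.568 and 0.360. Both regions in its coding sequence were lower too, with differences of -0.509 and -0.343.

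F511_00116, a SWIM zinc finger family protein, had a pair of abutting regions, both lower in mature leaves. The nearer, 612 bases past the gene, was 0.512 in young and 0 in mature leaves, and the farther was 0.890 and 0.356. Both overlapped a CHG region and a region of the negative CHH table, and a coding region of the same gene differed by -0.485.

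Some regions lay between a pair of genes, downstream of both. F511_00002, a putative subunit 26c of Mediator (the complex that links transcription factors to RNA polymerase II), and F511_00003, an ABC transporter F family member of the kind without membrane domains, shared 3 such regions. Their young levels were 0.877, 0.975 and 0.799, and their mature levels 0.568, 0.598 and 0.235. Elsewhere in these genes the direction was opposite. An upstream region of F511_00002 differed by 0.181 and a coding region of F511_00003 by 0.4105. F511_01586, a putative leucine-rich repeat receptor-like kinase, and F511_01587, a coatomer subunit delta-like protein of vesicle coats, also shared 3 regions, at 0.285, 0.588 and 0.496 in young and at 0, 0.289 and 0.113 in mature leaves. An exon region (-0.296) and an upstream region (-0.112) of F511_01586 were lower too, while an exon region of F511_01587 was higher (0.408). All 6 shared regions were lower in mature leaves. With them included, 24 of the 31 regions (77.4%) next to 2 or 3 genes were lower, against 53.7% of the 164 next to 1 gene. The 31 all lay on the 10 scaffolds with many genes, where 63.0% of 154 regions were lower. The 164 include regions of the other scaffolds, where 36.6% of 41 were lower.

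Neighbouring regions did not always share a direction. Of 19 pairs of such regions at most 500 bases apart, 14 had the same direction and 5 opposite directions. Behind F511_00606, an ABC transporter A family member 7-like protein, the region nearer the gene was at 0.390 in young and 0.685 in mature leaves and the one abutting it at 0.118 and 0. Behind F511_02552, an oxidoreductase family protein, the straddling region was at 0.403 in young and 0 in mature leaves and the next one, 174 bases from the gene, at 0.0619 and 0.196. Behind F511_02563, a chloroplast palmitoyl-acyl carrier protein thioesterase that releases fatty acids during their synthesis, the straddling region was at 0.8 in young and 0.419 in mature leaves and the one 1799 bases away at 0.397 and 0.755. Over the 23 genes with several such regions, 14 had 1 direction and 9 both. For 104 of the 196 genes the table also held CG regions elsewhere, and of 214 pairings of a downstream region with another region of its gene 120 had the same direction and 94 opposite directions.

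**Figure D4:**
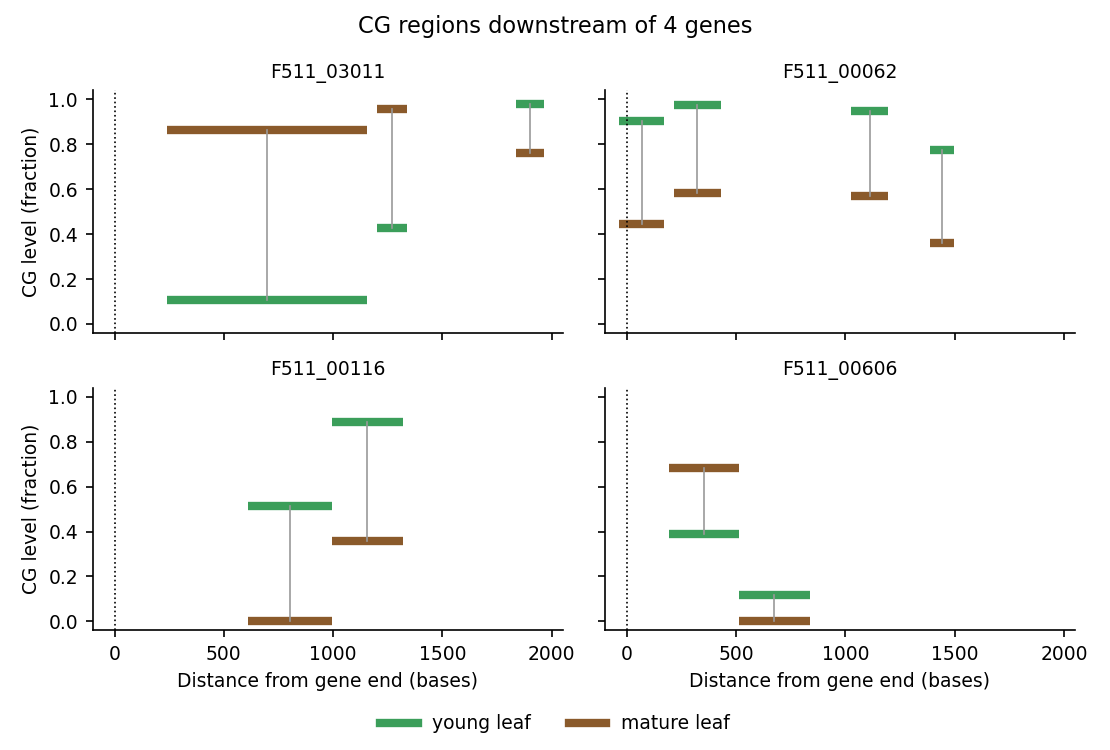
CG methylation level (fraction, y axis) of the regions downstream of 4 genes against distance from the gene end in bases (x axis, dotted line at 0); each bar spans a region, green for young and brown for mature leaves, joined by a grey line. F511_00062 and F511_00116 are lower in mature leaves in each region, while F511_03011 and F511_00606 hold regions of both directions.

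The genes beside the other regions with the largest negative differences had varied annotations. The largest difference was behind F511_00703, a 2-alkenal reductase that detoxifies reactive aldehydes, at KV005017.1:727891-727972, with 0.740 in young and 0.135 in mature leaves. F511_03028, resembling FRIGIDA-ESSENTIAL 1, which in Arabidopsis acts in flowering time control, had 0.773 and 0.236. F511_02439, a putative flavin-containing monooxygenase 1, had 0.52 and 0. F511_03019, resembling an anthocyanidin xylosyltransferase of pigment synthesis, had 0.768 and 0.263. F511_00816, a heterogeneous nuclear ribonucleoprotein 1-like RNA-binding protein, had 0.482 and 0, and F511_02575, subunit 9 of Mediator, had 0.476 and 0 only 16 bases past the gene. The unnamed F511_07092 had 0.678 and 0.16.

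The genes beside the other regions with the largest positive differences were as varied. F511_07107, the U3 small nucleolar ribonucleoprotein MPP10 of ribosomal RNA processing, had 0.195 in young and 0.878 in mature leaves and overlapped a CHG region. A region at KV010635.1:988000-988089, shared by the unnamed F511_02556, F511_02557 and the receptor-like kinase F511_02558, was at 0 in young and 0.72 in mature leaves over 5 CG sites. F511_02451, resembling ganglioside-induced differentiation-associated protein 2, had 0.460 and 0.914 in a region that straddles its end. F511_00716, fanconi-associated nuclease 1, which repairs DNA crosslinks, had 0.418 and 0.869. F511_00907, called STT3-like A and by homology a subunit of the enzyme that attaches N-glycans to proteins, had 0.518 and 0.935. F511_02498, a UBP1-associated RNA-binding protein, had 0.251 and 0.651, F511_01594, a beta-ureidopropionase of pyrimidine breakdown, had 0.463 and 0.857, and the unnamed F511_01126 had 0.351 and 0.856 with both CHG and CHH overlap.

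By function, few genes were matched by words of transcription factors. These 5 genes had 6 regions, 5 lower in mature leaves and 1 higher, while 57.4% of all 195 were lower. The median difference was -0.281, against -0.110 over all 195. The words miss others, such as the KAN1-like transcription repressor F511_00061, so the count is not over all such genes. A basic helix-loop-helix factor, F511_02457, had 2 of the lower regions, 1 of them at 0.528 in young and 0.203 in mature leaves. Its mean expression at day 0 was 0.0767 FPKM. F511_00125, of the NAC family of plant regulators, had 0.309 and 0, and F511_00888, an AP2/ERF and B3 domain factor, had 0.347 and 0.063.

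Chloroplast genes had 2 higher and 6 lower regions over 7 genes, with a median of -0.109. Their members include the thioesterase above and F511_00210, the organelle exonuclease DPD1, at 0.230 and 0. Transporter genes had 3 higher and 6 lower over 5 genes, with a median of -0.118, but 1 of these is the same thioesterase, matched through its word carrier. It gave 1 higher and 1 lower region. Another 3 of the 6 lower regions belong to F511_00003, the ABC family member of the kind without membrane domains. Protein kinase and receptor genes were divided, with 5 higher and 6 lower over 8 genes, among them F511_01130, a putative receptor-like kinase, at 0.0382 and 0.393.

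Genes matched by words of RNA processing had 5 higher and 4 lower over 8 genes, with a median of 0.147, but the words miss others of that function, so the count is not over all such genes. Among those missed, chosen after their values were seen, the coilin F511_01612 (-0.102), the THO complex subunit F511_02574 (-0.187), the ESF1 protein F511_00644 (-0.189), F511_01626 (-0.111) and F511_00816 (-0.482) had negative differences. F511_07107 (0.683) and F511_02498 (0.400) had positive ones. The 8 matched genes include the DHX35 helicase and the pentatricopeptide repeat genes F511_00600 and F511_00601, with a region between them at 0.944 and 0.662. Ubiquitin and protein turnover genes had 3 higher and 2 lower over 5 genes, with a median of 0.104. Examples are the E3 ligase F511_02490 at 0.157 and 0.413, the ubiquitin-related modifier F511_00765 at 0.776 and 0.982, and the F-box protein F511_01620 at 0.162 and 0. The mean expression of F511_00765 at day 0 was 0 FPKM.

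The remaining groups had 1 gene and 1 region each. F511_00679, an argonaute 1A-like protein of small RNA silencing, had 0.131 and 0 in a region that straddles the end of its neighbour F511_00680. F511_00879, an ASHR3-like histone methyltransferase, had 0.260 and 0.384. F511_00306, a translation elongation factor 2-like protein, had 0.686 and 0.575, and F511_02566, a leucine-rich repeat extensin-like wall protein, had 0.212 and 0. The gene in the cell cycle group, F511_00647, is cell division cycle protein 48, an ATPase that also serves protein degradation, at 0.936 and 0.818. Its mean expression at day 0 was 0 FPKM, and it was not among the genes tested for expression. The gene in the stress group, F511_00385, is annotated as a haloperoxidase-related acid phosphatase, matched through that word, at 0.490 and 0.8. Transposon-derived and hormone genes gave 0 genes here, of 6 and 21 listed on the scaffolds of the CG table. The cell type markers also gave 0, but these scaffolds list 0 mesophyll, 0 vascular, 3 epidermal and 1 meristem marker gene, so little could be found.

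Expression of the genes next to these regions was followed over the days on medium, in the young leaf explants only. All 3 later days are compared with the same day 0 libraries, so the comparisons are not independent of each other. Mesophyll markers (22 genes, 21 of them at 1 FPKM or more at day 0) summed to between 63650 and 91330 FPKM in the day 0 libraries and to between 11890 and 36280 FPKM at day 15. Meristem markers, 20 genes, summed to between 295 and 326.2 FPKM at day 0 and to between 419.7 and 597.7 FPKM at day 15. Vascular markers, also 20 genes, summed to between 278 and 346.3 FPKM and to between 482.5 and 553.5 FPKM, and guard cell and epidermis markers, 34 genes, to between 894.1 and 1286 FPKM and to between 829.4 and 1330 FPKM, with overlap. In bulk tissue, fewer cells of a type and less RNA per cell cannot be told apart, and the part of tissue composition in the changes below was not tested. Total FPKM per library was 846672 to 970083, and read counts per library are unknown.

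Of the 160 listed genes, 134 reached 1 FPKM in at least 3 libraries and were tested, and 26 were not. Few of them were called different from day 0. At day 5, 1 gene was called higher and 5 lower (4.48%), while 6.61% of all 17288 genes tested were called, 3.13% higher and 3.48% lower, by limma on log2(FPKM + 1) with an adjusted p under 0.05 and a change of at least 1 in log2. At day 10, 0 were called higher and 3 lower (2.24%), while 4.49% of all genes were called, 2.24% higher and 2.26% lower. At day 15, 1 was called higher and 4 lower (3.73%), while 9.02% of all genes were called, 4.63% higher and 4.38% lower. At an unadjusted limma p under 0.05, 38, 41 and 50 of the 134 genes passed at days 5, 10 and 15 (28.4%, 30.6% and 37.3%), beside 29.0%, 26.6% and 33.4% of all genes tested. The median log2 change of the 134 genes was 0.141, 0.147 and 0.276 at days 5, 10 and 15, beside 0.136, 0.151 and 0.213 over all genes tested. Genes whose regions were only lower in mature leaves had 3, 1 and 3 calls of 83, and genes whose regions were only higher had 3, 2 and 2 of 44. The counts depended on single libraries: without day 5 replicate 2 the day 5 count was 0, without day 0 replicate 1 the day 10 count was 0, and without day 0 replicate 2 the day 15 count was 1.

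The NAC gene F511_00125 was lower on every later day. Its levels were 16.42, 8.97 and 4.22 FPKM at day 0 and 1.26, 0.4 and 2.5 FPKM at day 5. They were 0.64, 2.38 and 1.64 FPKM at day 10 and 0.89, 1.64 and 2.15 FPKM at day 15. Every later library was below every day 0 library. The log2 change was -2.12 (SE 0.49, limma adjusted p = 0.0218) at day 5, -1.98 (adjusted p = 0.0351) at day 10 and -1.95 (adjusted p = 0.0232) at day 15. Its downstream region was at 0 in mature leaves. The calls were lost in 5, 10 and 4 of 18 other settings at days 5, 10 and 15, with a limma adjusted p of up to 0.0868, 0.135 and 0.0938. On each day they include leaving out day 0 replicate 1 or 2, or replicate 1 or 2 of the day itself. The day 10 call was also lost with a pseudocount of 0.1, with no filter on low values, with only the 6 libraries compared, and without day 10 replicate 3, day 5 replicate 1 or day 15 replicate 2, and the day 5 call with only the 6 libraries compared.

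F511_00662, annotated as quinolinate synthase, an enzyme of NAD synthesis in plastids, also was lower on every later day. It was at 47.78, 76.73 and 37.95 FPKM at day 0, and its later libraries ranged from 16.26 to 26.25 FPKM, with no overlap. The log2 change was -1.27 (SE 0.26, limma adjusted p = 0.0136) at day 5, -1.25 (adjusted p = 0.0207) at day 10 and -1.24 (adjusted p = 0.0114) at day 15. The region straddling its end was higher in mature leaves, 0.623 against 0.445 in young leaves. Without day 0 replicate 2 the calls were lost on each day, without day 5 replicate 2 the day 5 call and without day 0 replicate 1 the day 10 call. The highest adjusted p over all settings was 0.0589, 0.0967 and 0.0466 on the 3 days.

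The unnamed F511_02556, beside the region that was at 0 in young leaves, was at 52.01, 97.54 and 56.13 FPKM at day 0. It was at 11.47, 8.76 and 24.44 FPKM at day 5 and at 7.08, 8.68 and 28.14 FPKM at day 10. The groups did not overlap, and the log2 change was -2.2 (SE 0.55, limma adjusted p = 0.0277) at day 5 and -2.34 (adjusted p = 0.0291) at day 10. At day 15 it was at 11.86, 29.86 and 32.22 FPKM and was not called (log2 change -1.5, limma adjusted p = 0.0811). Both calls were lost without day 0 replicate 1 or 2, and without replicate 1 or 2 of the day itself. At day 15 the gene was called after median-ratio rescaling (limma adjusted p = 0.0495) and with replicate number as a block (0.0346). It was also called with replicates 1 and 2 only (0.0329) and without day 10 replicate 3 (0.0416).

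F511_00040, resembling mitochondrial uncoupling protein 5, a carrier of the inner mitochondrial membrane, had the largest change of these genes. It was at 259.32, 223.56 and 50.02 FPKM at day 0 and at 10.69, 6.34 and 27.22 FPKM at day 5 (log2 change -3.42, SE 0.85, limma adjusted p = 0.0274). At day 10, with 5.54, 11.05 and 63.91 FPKM, the groups overlapped and the gene was not called (limma adjusted p = 0.0505). The day 5 call was lost without replicate 1 or 2 of day 0 or of day 5. At day 10 the gene was called after median-ratio rescaling (limma adjusted p = 0.0439), with replicates 1 and 2 only (0.00149) and without replicate 3 of day 0 (0.0222) or of day 10 (0.0189). At day 15 it was not called (log2 change -2.58, adjusted p = 0.0593), but was in 6 other settings, with an adjusted p of 0.00291 to 0.0488. Its region differed little between leaf stages, 0.599 in young and 0.552 in mature leaves. Its other CG region, also downstream, was higher in mature leaves, with a difference of 0.150.

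F511_00680 was called at day 5, with 28.96, 33.67 and 38.45 FPKM at day 0 and 13.18, 7.8 and 21.2 FPKM at day 5 (log2 change -1.3, SE 0.37, limma adjusted p = 0.0426). The table calls it a TITAN-like protein while its closest homolog is REVEILLE 2-like, a clock-related factor, and the names conflict. The difference between day 5 and the later days was not called. The call was lost in 10 of 18 other settings, among them without any 1 of the day 0 or day 15 libraries and without day 5 replicate 1 or 2. At day 10 it was not called (log2 change -1.15, limma adjusted p = 0.0757). It was called there after median-ratio rescaling (limma adjusted p = 0.0407) and with replicate number as a block (0.0228). The same held with replicates 1 and 2 only (0.0308) and without day 10 replicate 3 (0.0376).

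The plastid genes F511_03054 and F511_01626, each with a region at 0 in mature leaves, were lower at day 15. Their other CG regions were higher in mature leaves. The differences were 0.249 in the coding sequence of F511_03054, and 0.297 in an exon and 0.120 downstream of F511_01626. F511_03054, an FKBP16-3 protein of the peptidyl-prolyl isomerase family in chloroplasts, went from 35.15, 35.46 and 29.7 FPKM at day 0 to 18.21, 9.35 and 3.76 FPKM (log2 change -1.81, SE 0.48, limma adjusted p = 0.0287). F511_01626, CRS2-associated factor 2, which acts in chloroplast intron splicing, went from 35.12, 40.06 and 53.16 FPKM to 26.31, 15.63 and 15.76 FPKM (log2 change -1.13, SE 0.27, limma adjusted p = 0.0186). Neither overlapped its day 0 values. The summed mesophyll markers were lower at day 15 as given above. Leaving out replicate 2 of day 0, or replicate 2 or 3 of day 15, ended both calls. Leaving out day 0 replicate 1 ended the first as well, and day 0 replicate 3 the second.

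The genes called higher, 2 of the 9, were both beside regions with more methylation in mature leaves. So were F511_00662 and F511_02556, which were called lower. The direction of methylation compares leaf stages, and that of expression compares days on medium in young leaf explants. The signs therefore belong to unlike comparisons, and a relation between them was not tested. F511_00588, diacylglycerol kinase 1-like, an enzyme of lipid signalling, was at 11.17, 13.99 and 17.99 FPKM at day 0 and 25.97, 34.27 and 41.0 FPKM at day 15 (log2 change 1.18, SE 0.21, limma adjusted p = 0.00641). Its straddling region was at 0 in young and 0.112 in mature leaves. The unnamed F511_03051 was at 79.78, 104.87 and 102.13 FPKM at day 0 and 208.8, 217.84 and 203.8 FPKM at day 5 (log2 change 1.14, SE 0.23, limma adjusted p = 0.0134), beside a region at 0.661 in young and 0.896 in mature leaves. A region in the coding sequence of F511_03051 was lower in mature leaves, with a difference of -0.167. Leaving out replicate 1 of day 0, or replicate 1 or 2 of day 5, ended the call of F511_03051. Neither call held when libraries were rescaled by the median ratio, which shifted the median of all genes from 0.136, 0.151 and 0.213 to -0.00611, 0.00405 and 0.0248 at days 5, 10 and 15.

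**Figure D5:**
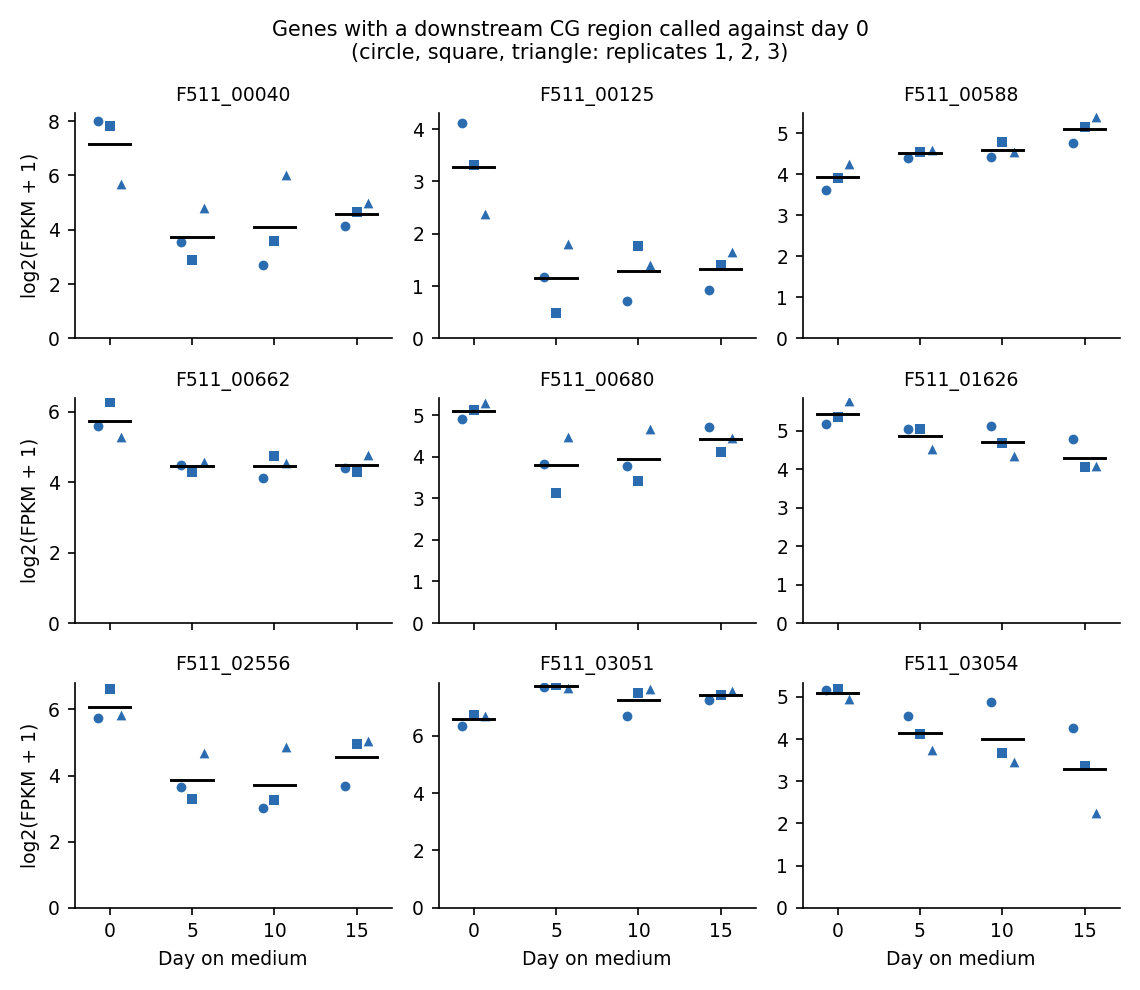
Expression as log2(FPKM + 1) (y axis, from 0) by day on medium (x axis) for the 9 genes called against day 0 on at least 1 day, with circles, squares and triangles for replicates 1, 2 and 3 and bars at the mean of 3 libraries. F511_00588 and F511_03051 are higher than day 0 and the other 7 lower, with F511_00040 and F511_00125 the most spread at day 0.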

How the data were processed

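The CG table holds, per the file headers, a methylation level as a fraction for each leaf stage, the number of CG sites, a p-value by the authors and the genes at each place; the region caller, its read depth and the genome build are not given in the sources used here. The authors' deposited expression table holds FPKM, already scaled by the authors to transcript length and library size. HISAT, StringTie 1.0.4, Bowtie2 2.2.5 and BSMAP appear in the submitters' processing notes, with no roles stated. Per the labels, bisulfite libraries had fragments of 120 to 170 bp and 18 PCR cycles. The CHG and CHH tables were used for positions only, since 6 per-sample columns bear names that match no label.

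Regions, distances to gene spans, overlaps and medians were computed with Python 3.11.15 and pandas 2.3.3. The strand of genes was not used here. Expression was fitted with limma 3.58.1 in R 4.3.3 (eBayes with trend and robust, statmod 1.5.0) on log2(FPKM + 1) over all 12 libraries, with two-sided p-values adjusted by Benjamini-Hochberg across 17288 genes that reached 1 FPKM in 3 or more libraries; fold changes on this scale understate low genes. The fit was tested on simulated data. Genes with near-identical copies may share reads.

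Named regions are the 10 largest positive and 10 largest negative differences, and up to 3 of the largest per functional list; named genes are those called on any day, and genes with several regions were added after their values were seen. The 18 lists are word matches on descriptions (81 of 160 listed genes by product, 32 by homology, 47 unnamed). The members and lists were chosen with earlier results of these data known. Alternatives were the settings named in the closing section.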

Additional observations from a re-analysis of the deposited data

How the results depend on the processing

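None of the 14 calls, of 9 genes, reversed its direction under any setting run. Other named genes and days were not checked for this. Of the regions, 42.6% were higher in mature leaves. The share was 24.1% of the 29 with a p under 0.001 in the authors' deposited table and 27.3% of the 55 differing by at least 0.3. The share at 0 in mature leaves was 62.1% of those 29, and the median difference was -0.353 among those 55. These filters select on the compared difference or its p-value, so these subsets cannot serve as a check of the values. Other subsets kept the shares inside a binomial (Wilson) interval around the full set, and the median difference inside a fixed tolerance. They were at least 10 CG sites, 1 downstream gene, and, chosen after seeing the data, without straddling regions, without unlisted genes, and 1 region per gene. The interval counts regions as independent, though all share 1 pair of libraries, so it measures no spread between plants. The table has no intron column, so that alternative was not run.

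Same-numbered libraries had correlated deviations in 17 of 18 pairs (-0.0109 to 0.656), but only 2 of 3 pairs passed 0.1 between day 0 and each later day, so the numbers were not taken as pairing; between days 5 and 10 and days 10 and 15 all 3 did. Of 36 combinations of a library with another day, 23 correlated best with their own number. A replicate block lost 0 of the 14 calls and gave 6 genes beside regions at day 10 and 8 at day 15, adding F511_00680 (limma adjusted p = 0.0228), F511_00390 (0.0246) and F511_03054 (0.043) at day 10 and F511_02556 (0.0346), F511_00795 (0.00488) and F511_01126 (0.0277) at day 15. With replicates 1 and 2 only, calls rose to 2033 of all genes at day 5 and 1492 at day 10, and to 7 genes beside regions at day 10 and 9 at day 15. With only the 6 libraries compared, day 10 gave 88 of all genes and 0 beside regions. Median-ratio rescaling gave 5 beside regions at day 10 and turned the split of all genes from 541 higher and 601 lower to 349 and 729 at day 5, from 387 and 390 to 245 and 504 at day 10, and from 801 and 758 to 494 and 999 at day 15. The causes were not tested. Leaving out 1 library gave 417 to 1414 of all genes at day 5, 205 to 1177 at day 10 and 753 to 1894 at day 15, and 0 to 6, 0 to 5 and 1 to 8 genes beside regions. Counts moved by over 1.5 times without day 0 replicate 1 or 2 on each day, day 5 replicate 1 or 2 at day 5, day 0 replicate 3 and day 10 replicate 1 or 2 at day 10, and day 15 replicate 2 or 3 and day 10 replicate 3 at day 15. Of the 14 calls, 13 were lost without at least 1 library; the exception was F511_00588 at day 15. Read depth behind each methylation level is unknown, so no interval is given.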
